A study of Mus musculus with 6 samples.

Results

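Transcripts of 8 core sarcomere genes were measured in mouse hearts exposed to angiotensin II, or Ang II, the vasoconstrictor peptide used to induce hypertension. The set held Ttn, Myom1, Myom2, Mybpc3, Myl2, Myl3, Tnnt2 and Tnnc1. Its members were taken by name, as the rows of the deposited expression table whose gene symbol equals 1 of these, and all 8 were found among 22556 genes. Hearts of wild-type (WT) mice were sequenced at 0, 7 and 28 days of Ang II, given under the skin from osmotic minipumps at 1000 ng per kg per min. There were 2 libraries in the control group, which the labels list at 0 days, 2 at 7 days and 2 at 28 days. The labels give no age or sex, do not say what the controls received, and do not say whether a library came from 1 mouse, from a pool or from a part of the heart. So p-values here reflect only how far these libraries differ, and that spread may be technical.

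The sarcomere is the contractile unit of heart muscle. Thick filaments of myosin slide along thin filaments of actin when calcium binds the troponin complex on the thin filament. Titin, the giant protein encoded by Ttn, spans from the Z-disc at the border of the sarcomere to the M-band at its centre and acts as a molecular spring. Myomesin 1 (Myom1) and myomesin 2 (Myom2) crosslink thick filaments and titin in the M-band. Cardiac myosin-binding protein C (Mybpc3) binds myosin and titin along the thick filament and tunes contraction. Myl2 and Myl3 encode the ventricular regulatory and essential light chains that sit on the myosin neck. Tnnt2 encodes cardiac troponin T, which anchors troponin to tropomyosin, and Tnnc1 encodes cardiac troponin C, which binds the calcium. Mutations of many of these genes are known causes of inherited cardiomyopathy in people.

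Values are RPKM, read numbers divided by gene length and library size, so levels of different genes can be compared per length, although no source at hand states which gene lengths were used. Relative to control replicate 1, depth estimated from low values was 0.890 to 1.17, and each library had 15636 to 16036 genes above 0. The heart label was checked against cell type markers. All 13 cardiomyocyte genes outside the sarcomere were above 0 in every library, and their summed RPKM ran from 26164 to 26166 in controls, from 22917 to 26788 at 7 days and from 25291 to 25338 at 28 days. The 10 skeletal muscle markers summed to at most 11.2 RPKM, and Tnnc2, which encodes the fast skeletal troponin C, was listed at 0 in 1 library. Markers of atrial tissue varied within the control group. The 8 listed summed to 371 and 3089 RPKM in controls, 2094 and 2280 RPKM at 7 days, and 2485 and 3481 RPKM at 28 days. They did not move alike: Nppa measured 215 and 1605 RPKM in controls and 1932 and 2084 RPKM at 7 days. Clec3b was lower in control replicate 2, at 36.6 and 31.4 RPKM. Myl7, the atrial regulatory light chain, measured 52.5 and 646 RPKM in the 2 controls, 41.2 and 66.2 RPKM at 7 days, and 341 and 182 RPKM at 28 days. In bulk tissue, fewer cells of a type and less RNA per cell cannot be told apart.

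The members stood at very different levels in the same hearts. Myl2 was the most abundant gene of the table in all 6 libraries once short RNA genes were set aside. Without those genes, the 8 members made up 9.08% and 8.61% of the summed RPKM in controls, 9.27% and 8.02% at 7 days, and 9.35% and 10.7% at 28 days. By mean level the order was Myl2, Tnnt2, Myl3, Tnnc1, Mybpc3, Myom1 or Myom2, and Ttn. The lowest Myl2 value, 11956.5 RPKM, lay above the highest Tnnt2 value, 7292 RPKM. Tnnt2 was above Myl3 in 6 of 6 libraries. Myl3 and Tnnc1 overlapped, with Myl3 higher in 3 of 6 libraries, and so did Myom1 and Myom2, again 3 of 6. Ttn lay below all the others per length, at 35.6 to 47.0 RPKM, on a longest coding transcript of 106824 bases (GENCODE vM21), against 721 bases for Tnnc1.

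**Figure D1:**
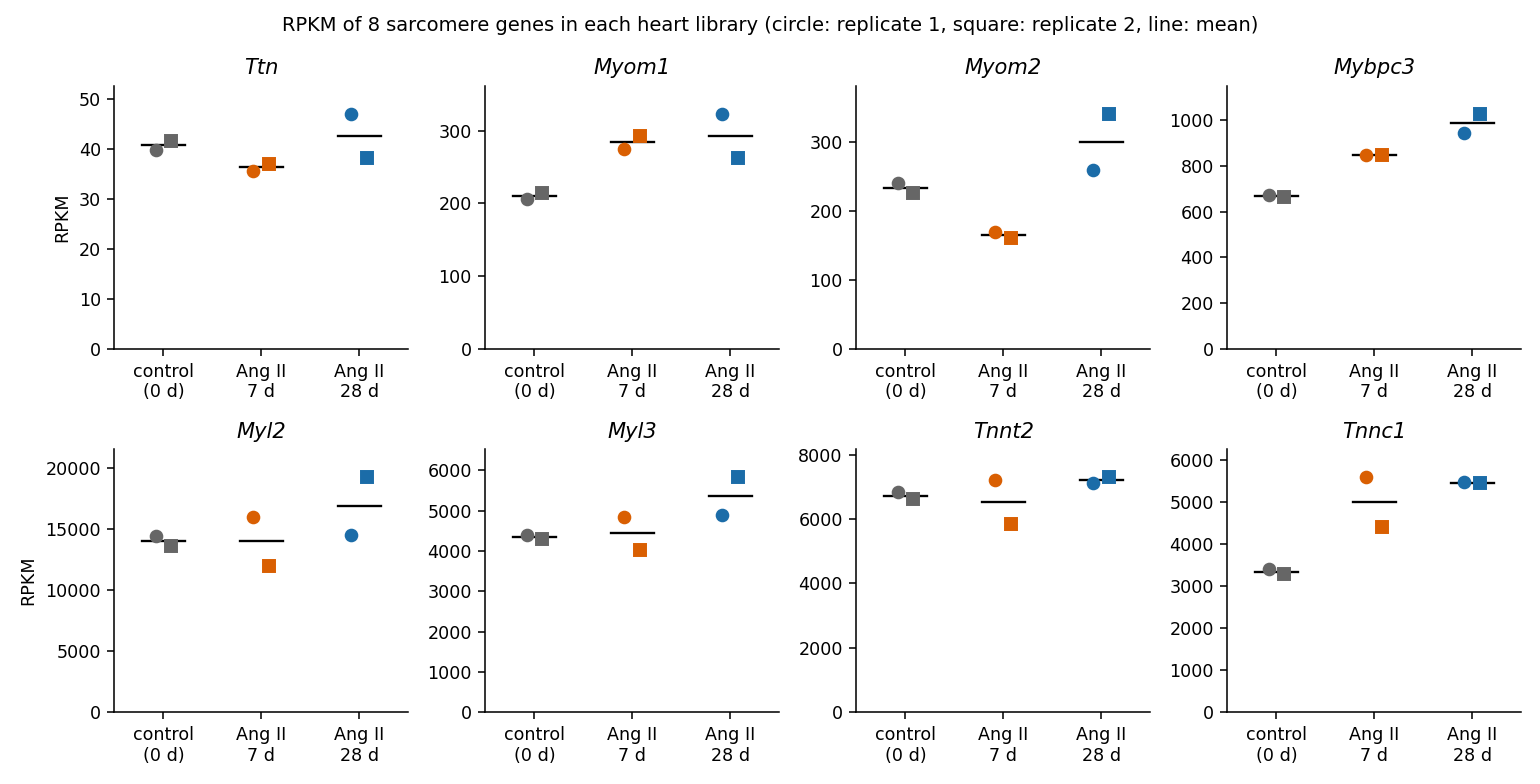
RPKM of each member in the 6 libraries, 1 panel per gene with its own axis from 0; circles are replicate 1, squares replicate 2, and lines the mean of each group of 2. Tnnc1 and Mybpc3 lie above both controls at both times, while Myom2 lies below the controls at 7 days and above them at 28 days.

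In each comparison 1 or 2 of 8 members were called. With 2 libraries a group, the lack of a call does not show that a member was unchanged. Genes were compared on log2(RPKM + 0.5) with limma across 11096 genes. Calls needed p under 0.05 after Benjamini-Hochberg adjustment over that whole set. After 7 days 1 of 8 members, Tnnc1, was higher than in controls and the others did not pass, where 13.2% of all tested genes passed as higher and 2.27% as lower. After 28 days 2 of 8, Tnnc1 and Mybpc3, were higher and the others did not pass, where 2.87% of all genes passed as higher and 1.54% as lower. Between the times 1 of 8, Myom2, was higher at 28 than at 7 days, where 0.406% of all genes passed as higher and 4.26% as lower. At an unadjusted p under 0.05 in limma there were 3 members higher and 1 lower at 7 days (32.1% of all genes in either direction), 4 higher at 28 days (22.2%) and 1 higher at 28 against 7 days (22.1%). The median log2 fold change of the 8 members was 0.00 at 7 days and 0.32 at 28 days against controls, beside 0.14 and 0.01 over all tested genes. Median ratio scaling placed the 7 day medians at -0.17 for the members and -0.02 for all genes. Both comparisons with controls share the same 2 control libraries.

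**Figure D2:**
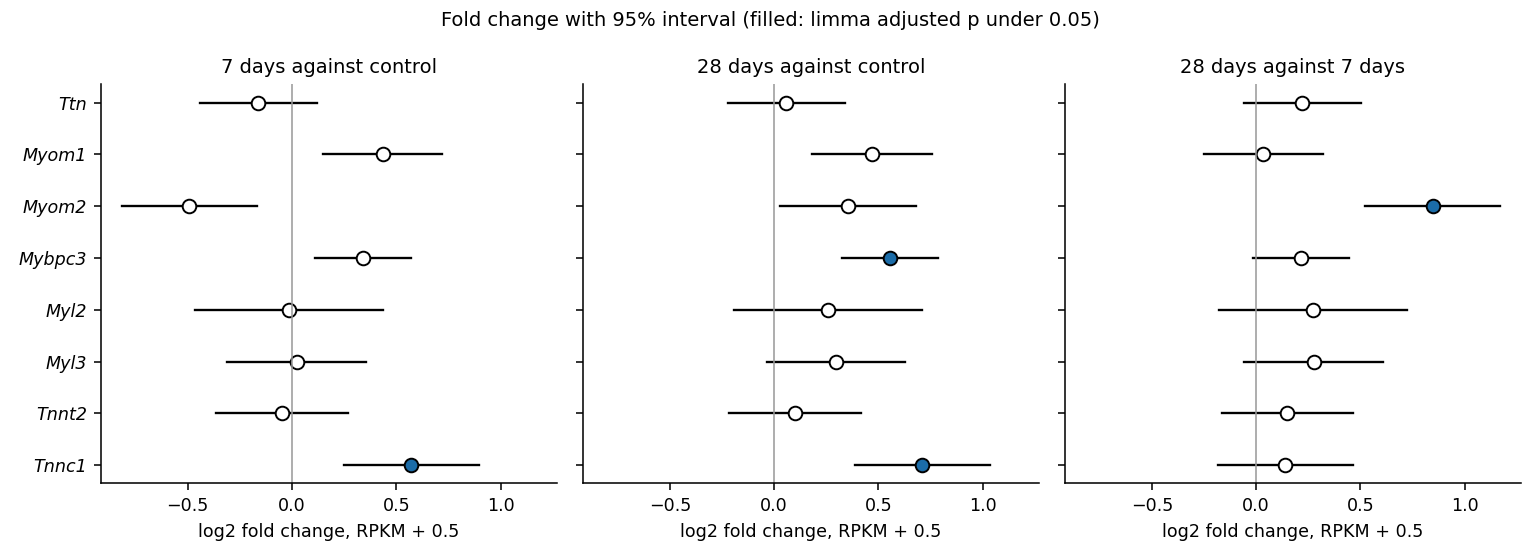
Log2 fold change (on RPKM + 0.5) of each member with its 95% interval for the 3 comparisons, from limma; filled points passed an adjusted p of 0.05. Tnnc1 is filled at both times against controls, Mybpc3 at 28 days against controls and Myom2 at 28 against 7 days.

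On the thin filament, Tnnc1 was higher than in controls at both times, and Tnnt2 did not pass at either. Tnnc1 measured 3400.0 and 3288 RPKM in controls, 5591 and 4409.8 RPKM at 7 days, and 5482 and 5455 RPKM at 28 days. All 4 Ang II libraries were above both controls, and the 2 libraries at 7 days lay farther apart than any other pair. Tnnc1 rose 1.48-fold at 7 days, to 5001 ± 836 RPKM against 3344 ± 78.9 RPKM in controls (mean ± SD, n = 2 each; SE of the log2 fold change of 0.57 was 0.14; limma adjusted p = 0.0347). It rose 1.64-fold at 28 days, to 5469 ± 19.0 RPKM (a log2 fold change of 0.71 with SE 0.14; limma adjusted p = 0.0383). Between 28 and 7 days Tnnc1 differed by 0.14 on the log2 scale, with an interval of -0.18 to 0.46 (limma adjusted p = 0.592).

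The Tnnc1 calls were lost in part under other settings, always with the same direction. At 7 days the adjusted p was 0.109 with median ratio scaling, 0.105 with quantile normalization, 0.0537 with only the 2 groups in the fit and 0.206 with no filter on low values. At 28 days it was 0.0959 with quantile normalization and 0.230 with no filter. Quantile normalization also lowered the log2 fold change, to 0.32 at 7 days and 0.39 at 28 days. The calls at both times were lost without either control and without either 28 day library. With 1 library left out, the log2 fold change of Tnnc1 ran from 0.40 to 0.74 at 7 days and from 0.69 to 0.73 at 28 days.

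Tnnt2 measured 6826 and 6614 RPKM in controls, 7217 and 5844 RPKM at 7 days, and 7111 and 7292 RPKM at 28 days. At 7 days 1 library lay above and 1 below the controls, and at 28 days both lay above. Its log2 fold change was -0.05 at 7 days (interval -0.36 to 0.27; limma adjusted p = 0.836) and 0.10 at 28 days (interval -0.21 to 0.41; limma adjusted p = 0.702). Under quantile normalization the 7 day value was -0.45 (limma adjusted p = 0.0822) and the 28 day value turned to -0.25.

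A ratio of 2 genes in the same library does not depend on a factor applied to that whole library, but quantile normalization and removal of a trend with transcript length can move it. Tnnt2 over Tnnc1 was 2.01 and 2.01 in controls, 1.29 and 1.33 at 7 days, and 1.30 and 1.34 at 28 days. The 4 Ang II libraries lay close together and apart from the controls, also where the 2 libraries at 7 days differed in both genes. On the log2 scale the ratio was lower by 0.62 at 7 days and by 0.61 at 28 days, beside SDs of the difference of 0.0271 and 0.0308. Here and below, that SD is for a difference between single libraries of the 2 groups, not between the group means. The exact two-sided permutation test gave p = 0.333 for both, the smallest value that 2 against 2 libraries allow. The 7 day difference was -0.77 after quantile normalization and -0.67 with the length trend removed. The ratio at 28 days over that at 7 days differed by 0.01 on the log2 scale, and those groups overlapped.

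The promoters of both troponin genes, and of Mybpc3, are shown because Tnnc1 and Mybpc3 were the 2 members called at 28 days and Tnnt2 is the troponin partner that was not. The sequences are the 250 bases before the start in RefSeq's table for GRCm38.p6, written 5′ to 3′, and capitals mark matches to the motifs named after them. For Tnnt2 the first of 2 listed windows is given.
Tnnc1 chr14:31208062-31208311 (+): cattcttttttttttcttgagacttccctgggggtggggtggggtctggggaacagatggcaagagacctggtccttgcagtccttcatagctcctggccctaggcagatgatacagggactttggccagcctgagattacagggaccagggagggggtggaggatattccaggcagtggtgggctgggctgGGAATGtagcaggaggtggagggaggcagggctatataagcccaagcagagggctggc
Tnnt2 chr1:135836084-135836333 (+): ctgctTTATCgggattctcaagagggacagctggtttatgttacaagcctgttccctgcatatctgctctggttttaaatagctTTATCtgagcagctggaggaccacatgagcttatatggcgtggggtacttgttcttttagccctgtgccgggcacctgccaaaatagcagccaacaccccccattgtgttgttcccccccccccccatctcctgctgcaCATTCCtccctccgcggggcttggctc
Mybpc3 chr2:91117894-91118143 (+): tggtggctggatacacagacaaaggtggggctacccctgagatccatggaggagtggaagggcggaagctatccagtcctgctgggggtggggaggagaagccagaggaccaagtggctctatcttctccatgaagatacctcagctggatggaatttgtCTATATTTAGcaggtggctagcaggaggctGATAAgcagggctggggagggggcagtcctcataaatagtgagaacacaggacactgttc
Windows of 300 bases, from 250 before to 50 after the start, were searched on both strands. The motifs were TATAAA, an exact form of the TATA box, CATTCC, the core bound by TEAD factors, and GATAA, bound by GATA factors. The CArG box and MEF2 box, bound by SRF and MEF2, were searched as well. Variants such as TATATAA, which stands in the printed Tnnc1 sequence, were not counted as TATAAA. The table matched 7 of 8 members in 9 windows; Myom2 had no entry. The Tnnc1 window held 1 CATTCC match, on the minus strand and starting 58 bases before the start, and no match to the other motifs. The first Tnnt2 window held 1 CATTCC match, 27 bases before the start, and 2 GATAA matches. The Mybpc3 window held 1 MEF2 box, 90 bases before the start, and 1 GATAA match, 60 bases before it. None of the motifs was found in all 3 windows. Over the 9 member windows CATTCC occurred in 4 and GATAA in 5, beside 14.66% and 25.41% of the 32851 windows of the table. The MEF2 box occurred in 2 of 9 (Mybpc3, Ttn) and the CArG box in 2 of 9 (Myl3, Myom1), beside 3.187% and 1.629% of all windows. TATAAA occurred in 1 of 9, the second Myl2 window, on the minus strand and starting 216 bases before the start, beside 13.62%. None of these motifs overlapped another in the 3 windows shown.

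On the thick filament, Mybpc3 was higher after 28 days of Ang II. It measured 674 and 665 RPKM in controls, 848 and 848 RPKM at 7 days, and 944 and 1025 RPKM at 28 days. The 3 groups did not overlap, and every Ang II library was above both controls. Mybpc3 rose 1.47-fold at 28 days, to 985 ± 57.6 RPKM against 669 ± 6.01 RPKM in controls (a log2 fold change of 0.56 with SE 0.10; limma adjusted p = 0.0298). At 7 days its log2 fold change of 0.34 (interval 0.11 to 0.57) missed the threshold (limma adjusted p = 0.0576), and it passed once a trend with transcript length was removed (adjusted p = 0.0257). The 7 day value was smaller, at 0.17, with median ratio scaling (limma adjusted p = 0.276) and with quantile normalization (0.306). At 28 against 7 days it differed by 0.21 on the log2 scale, with an interval of -0.02 to 0.44 (limma adjusted p = 0.251).

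The 28 day call of Mybpc3 was lost, with the same direction, under quantile normalization (limma adjusted p = 0.144), scaling to cardiomyocyte genes (0.0548), no filter on low values (0.108), without either control (0.219 and 0.282) and without either 28 day library (0.0528 and 0.0939).

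The myosin light chains had the widest intervals of the set. Myl2 measured 14396 and 13561 RPKM in controls, 15992 and 11956.5 RPKM at 7 days, and 14504 and 19214 RPKM at 28 days. Replicate 2 stood 0.748 times as high as replicate 1 at 7 days and 1.32 times as high at 28 days. The log2 fold change of Myl2 was -0.01 at 7 days (interval -0.47 to 0.44; limma adjusted p = 0.966) and 0.26 at 28 days (interval -0.19 to 0.71; limma adjusted p = 0.469). Quantile normalization moved both, to -1.33 at 7 days (limma adjusted p = 0.0677) and to -0.38 at 28 days (limma adjusted p = 0.586). That method sets each value by the rank of the gene in its library, and short RNA genes were kept in it. With them included, Myl2 ranked 1 and 1 in controls, 3 and 2 at 7 days, and 1 and 2 at 28 days.

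Myl3 measured 4401 and 4299 RPKM in controls, 4839.9 and 4028 RPKM at 7 days, and 4903 and 5825 RPKM at 28 days. The 7 day libraries fell on either side of the controls, and the 28 day libraries were both above them. Its log2 fold change was 0.02 at 7 days (interval -0.31 to 0.35; limma adjusted p = 0.934), which turned to -0.15 under median ratio scaling. At 28 days it was 0.30 (interval -0.03 to 0.63; limma adjusted p = 0.269), which turned to -0.051 under quantile normalization. Myl2 over Myl3 was 3.27 and 3.15 in controls, 3.30 and 2.97 at 7 days, and 2.96 and 3.30 at 28 days. That ratio differed by -0.04 on the log2 scale at either time, beside SDs of the difference of 0.115 and 0.117, and all groups overlapped. After quantile normalization it differed by -1.21 at 7 days and -0.33 at 28 days.

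Titin transcripts showed no called difference. Ttn measured 39.9 and 41.5 RPKM in controls, 35.6 and 37.0 RPKM at 7 days, and 47.0 and 38.3 RPKM at 28 days. Both 7 day libraries were below the controls, and the 28 day libraries lay on either side of them. The log2 fold change was -0.16 at 7 days (interval -0.44 to 0.12; limma adjusted p = 0.389) and 0.06 at 28 days (interval -0.22 to 0.34; limma adjusted p = 0.813). The 7 day value turned to 0.23 once the length trend was removed, and the 28 day value to -0.060 under quantile normalization. RPKM per gene does not separate titin isoforms, which differ in the length of the spring region.

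Mybpc3 is a partner that binds titin along the thick filament, and its level per titin was read within each library. Mybpc3 over Ttn was 16.9 and 16.0 in controls, 23.8 and 22.9 at 7 days, and 20.1 and 26.8 at 28 days. All 4 Ang II libraries lay above both controls. The log2 difference was 0.51 at 7 days and 0.50 at 28 days, beside SDs of the difference of 0.0657 and 0.299 (exact two-sided permutation p = 0.333 for both, the smallest possible). With the length trend removed it was 0.11 at 7 days and 0.44 at 28 days, values that rest on the same fit at the length of Ttn.

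**Figure D3:**
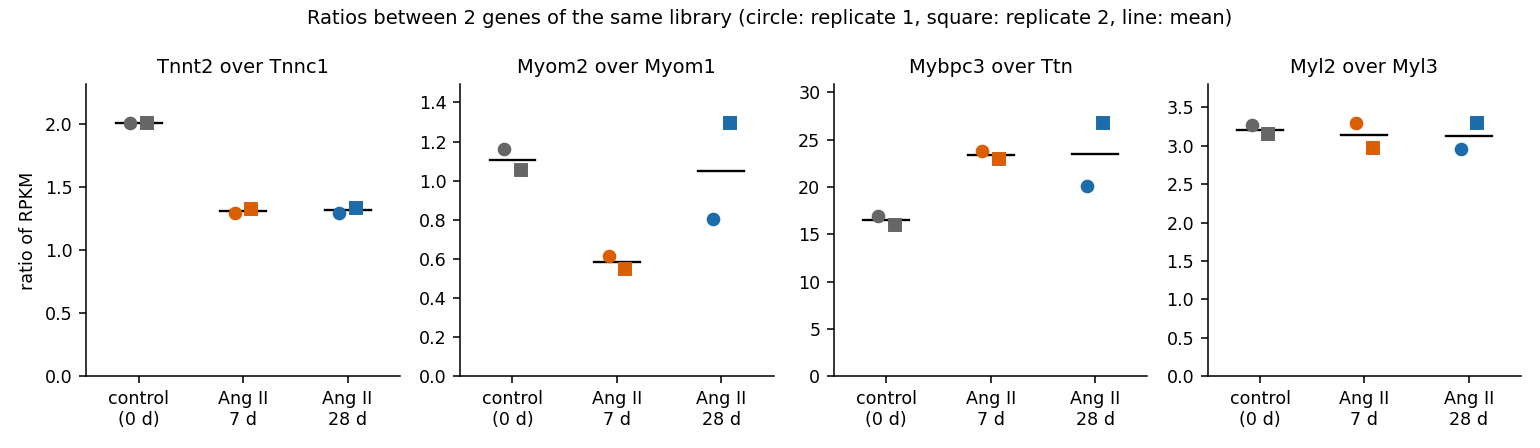
Ratios of RPKM between 2 members of the same library, 1 panel per ratio with its axis from 0; circles are replicate 1, squares replicate 2, lines the mean of 2. Tnnt2 over Tnnc1 is 1.29 to 1.34 in the Ang II libraries and 2.01 in controls, and Myl2 over Myl3 overlaps between all groups.

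In the M-band the 2 myomesins lay on opposite sides of the controls at 7 days, and neither passed against them. Myom1 measured 206 and 214 RPKM in controls, 275 and 293 RPKM at 7 days, and 323 and 262 RPKM at 28 days. All 4 Ang II libraries were above both controls. Its log2 fold change was 0.43 at 7 days (interval 0.15 to 0.72; limma adjusted p = 0.0546) and 0.47 at 28 days (interval 0.18 to 0.76; limma adjusted p = 0.0816), so neither passed. Both passed once the length trend was removed (adjusted p = 0.0221 and 0.0372), while the 7 day value was 0.26 with median ratio scaling (limma adjusted p = 0.240) and 0.35 with quantile normalization (0.106).

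Myom2 measured 239.6 and 226 RPKM in controls, 169 and 161 RPKM at 7 days, and 259.5 and 339.8 RPKM at 28 days. The 7 day libraries were below and the 28 day libraries above both controls. Myom2 was 1.80-fold higher at 28 days than at 7 days, at 299.7 ± 56.8 RPKM against 165 ± 5.87 RPKM (a log2 fold change of 0.85 with SE 0.14; limma adjusted p = 0.0221), in 2 of 2 libraries. Against controls the log2 fold change was -0.49 at 7 days (interval -0.82 to -0.17; limma adjusted p = 0.0542) and 0.35 at 28 days (interval 0.03 to 0.68; limma adjusted p = 0.197), and neither passed. The 7 day difference passed with median ratio scaling, at -0.66 (limma adjusted p = 0.0210), and with quantile normalization, at -0.61 (limma adjusted p = 0.0338).

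The call between 28 and 7 days was lost with no filter (limma adjusted p = 0.0657), with only the 2 groups in the fit (0.0525), without either 7 day library (0.088 and 0.146) and without either control (0.0520 and 0.0526), which enter only through the shared spread. Myom2 over Myom1 was 1.16 and 1.05 in controls, 0.615 and 0.549 at 7 days, and 0.804 and 1.30 at 28 days. The ratio was thus below 1 in both 7 day libraries and in 1 of 2 at 28 days. On the log2 scale it was lower by 0.93 at 7 days (SD of the difference 0.153; groups apart; exact two-sided permutation p = 0.333, the smallest possible) and by 0.12 at 28 days (SD of the difference 0.499; groups overlapping).

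Counted by overlap alone, 3 members lay above and 2 below the controls in both libraries at 7 days, where 48.6% of all genes lay above and 16.1% below. At 28 days 7 of 8 lay above, all but Ttn, where 28.8% of all genes lay above and 25.8% below. Of those 7, Myl2, Myl3 and Tnnt2 turned to the other side on average under quantile normalization. At 28 against 7 days 4 of 8 lay above, where 9.12% of all genes lay above and 41.2% below.

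The difference within a pair of libraries went with transcript length at 7 days. There, replicate 2 over replicate 1 was 0.748 to 0.832 for the 4 short transcripts, Myl2, Tnnc1, Tnnt2 and Myl3, and 0.951 to 1.06 for the 4 long ones, Myom2, Mybpc3, Ttn and Myom1. At 28 days it was 1.32 for Myl2, 1.31 for Myom2 and 1.19 for Myl3, but 0.815 for Ttn and 0.811 for Myom1. In controls all 8 ratios were between 0.941 and 1.04. Over 10960 tested genes with a length, Spearman's rho between length and the log2 ratio of replicates was 0.01 in controls, 0.32 at 7 days and -0.19 at 28 days. These values describe genes of 1 pair of libraries each and are given with no test. The part of this trend in the differences between groups was read by removing it with a loess fit, an alternative chosen after the data were seen. With it 3 members passed at 7 days, Tnnc1, Mybpc3 and Myom1, and 3 at 28 days, the same 3.

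**Figure D4:**
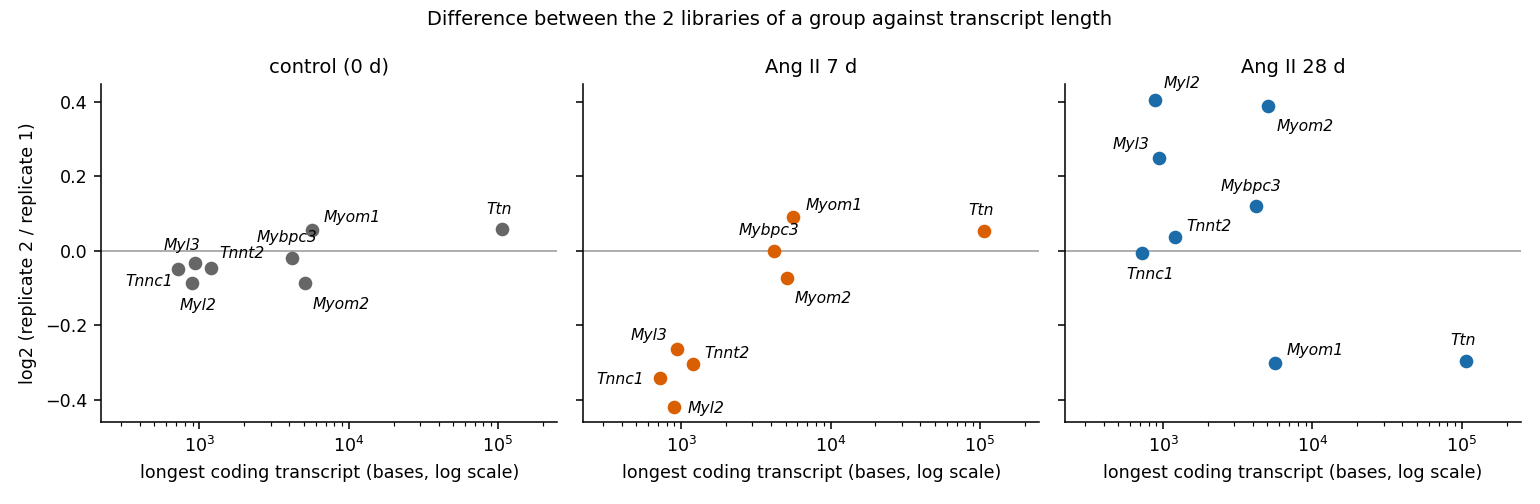
Log2 ratio of replicate 2 over replicate 1 for each member against its longest coding transcript in bases (log scale), 1 panel per group. Controls stay near 0, the 4 shortest members lie below 0 at 7 days, and at 28 days Ttn and Myom1 lie below 0 and Myl2 and Myom2 above.

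Other sarcomere genes were counted from lists, set up with earlier results of these data known. Over all tested genes 13.2% passed as higher and 2.27% as lower at 7 days, and 2.87% and 1.54% at 28 days. The counts of each list below are to be read beside those shares. Of 18 tested Z-disc and I-band partners of titin, 11 rose and 1 fell at 7 days, and 12 rose at 28 days while the other 6 did not pass, with median log2 fold changes of 0.63 and 0.83. Ankrd23, which binds the titin spring, measured 53.6 and 73.2 RPKM in controls, 282 and 309 RPKM at 7 days, and 375 and 294 RPKM at 28 days. It rose by 2.23 and 2.40 on the log2 scale. Flnc, the actin crosslinker filamin C, rose by 1.34 and 1.78, and Synpo2l, a Z-disc protein, by 1.42 and 2.03. At 28 days both were higher in replicate 1, with Flnc at 88.7 and 45.7 RPKM and Synpo2l at 108 and 45.5 RPKM. Leaving out 28 day replicate 1 or 2 gave 1.31 or 2.26 for Flnc and 1.41 or 2.65 for Synpo2l. Both 28 day calls were lost with no filter, with only the 2 groups in the fit, without either control and without either 7 day library. With median ratio scaling 6 of 18 rose at 7 days, and Flnc and Synpo2l were no longer called there. The 7 day call was lost in 6 of 17 refits for Flnc and in 10 of 17 for Synpo2l.

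Tcap encodes telethonin, which caps the titin amino terminus in the Z-disc, and it is named here after its values were seen. It measured 1429.8 and 1442 RPKM in controls, 688 and 643 RPKM at 7 days, and 1612 and 1633 RPKM at 28 days. The 7 day libraries were the only ones below the controls. Tcap fell at 7 days by 1.11 on the log2 scale (SE 0.10; limma adjusted p = 0.00117) and was higher at 28 than at 7 days by 1.29 (limma adjusted p = 0.00264). Both calls held in all 17 refits, those with a library left out included. At 28 days against controls it differed by 0.18 (limma adjusted p = 0.335).

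Of 14 tested thin filament genes, 4 rose at 7 days and 5 at 28 days and the others did not pass, with medians of 0.17 and 0.28. Acta1, skeletal alpha-actin, measured 125 and 170.4 RPKM in controls, 870.0 and 875 RPKM at 7 days, and 666 and 719.8 RPKM at 28 days, a rise of 2.58 and 2.24 on the log2 scale. Acta1 and the cardiac actin gene Actc1 have near-identical coding sequences, and how reads they share were counted is not stated. Actc1 measured 5053 and 5030 RPKM in controls, 7855 and 6382 RPKM at 7 days, and 8411 and 7691 RPKM at 28 days. Every Ang II library of Actc1 lay above both controls. Xirp2, an actin-binding protein of the intercalated disc, rose by 1.18 and 1.33, and those calls were lost in 7 and 8 of 17 refits. Its 28 day libraries stood at 101 and 52.0 RPKM. Tpm2, a tropomyosin, rose by 1.34 at 7 days, a call lost in 3 of 17 refits, and Xirp1 by 1.94 at 28 days. The 28 day libraries of Xirp1 stood at 142 and 59.8 RPKM, and leaving out replicate 1 or 2 gave 1.32 or 2.56. Its call was lost with no filter, with only the 2 groups in the fit, without either control and without either 7 day library. The partners of troponin T and C on the same filament, Tnni3 (troponin I) and Tpm1 (alpha-tropomyosin), differed at 28 days by 0.02 and 0.01 on the log2 scale and did not pass. At 7 days Tnni3 differed by -0.25 (limma adjusted p = 0.289), at 4576 and 3507 RPKM against 4763 and 4733 RPKM in controls, and Tpm1 by 0.02 (limma adjusted p = 0.953). The 7 day median of this list was -0.01 under quantile normalization.

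Of 8 tested thick filament genes, 1 fell at 7 days and 1 rose at 28 days and the others did not pass, with medians of 0.06 and 0.21. Mylk3, the cardiac kinase that phosphorylates the Myl2 protein, measured 155 and 167 RPKM in controls, 108 and 103 RPKM at 7 days, and 118 and 138 RPKM at 28 days. It fell by 0.60 on the log2 scale at 7 days (limma adjusted p = 0.0155) and differed by -0.33 at 28 days (limma adjusted p = 0.149). The 7 day call of Mylk3 was lost in 3 of 17 refits. Myh7, the slow myosin heavy chain, measured 421 and 834 RPKM at 28 days against 173 and 141 RPKM in controls, a rise of 1.92 on the log2 scale (limma adjusted p = 0.0208). The call of Myh7 was lost with no filter, with only the 2 groups in the fit, without either control (limma adjusted p = 0.104 and 0.101) and without 7 day replicate 1 (0.0508). The 7 day median was -0.11 with median ratio scaling.

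Of 14 tested M-band and titin-linked genes, 1 fell at 7 days, and 2 rose and 1 fell at 28 days, with medians of 0.04 and 0.17, the first of which was -0.13 with median ratio scaling. Ky, a muscle protease-like protein, fell by 0.76 and 1.42 on the log2 scale, at 3.68 and 3.6 RPKM in controls, 1.66 and 2.27 RPKM at 7 days, and 0.893 and 1.21 RPKM at 28 days. The Ky calls were lost in 6 and 3 of 17 refits, and a filter at a mean RPKM of 5 left it untested. Trim54, a ubiquitin ligase of the MuRF family, rose at 28 days by 0.59, a call lost in 3 of 17 refits. Ank1 was called at 28 days at 0.49, and that call was lost in 13 of 17 refits. Of 7 tested isoforms of other muscle types, 2 rose at 7 days and 1 at 28 days, and the others did not pass. Mybpc2, the fast skeletal relative of Mybpc3, rose by 1.76 at 7 days, to 10.7 and 16.2 RPKM against 3.61 and 3.47 RPKM in controls, and by 0.96 at 28 days. Myl1, a fast skeletal light chain related to Myl3, rose by 0.96 at 7 days. The Mybpc2 call held in all 17 refits at 7 days and was lost in 8 of 17 at 28 days. The Myl1 call was lost in 8 of 17.

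Among 10 regulators of titin splicing, 2 rose and 1 fell at 7 days and no call was made at 28 days, with medians of -0.07 and 0.08. Ptbp1 and Rbfox2 rose by 0.68 and 0.54 on the log2 scale and Rbfox1 fell by 0.53. Those calls were lost in 3, 6 and 4 of 17 refits. With median ratio scaling 1 rose and 3 fell. Rbm20, the main repressor of titin exons in heart, measured 33.8 and 32.7 RPKM in controls, 26.5 and 28.1 RPKM at 7 days, and 34.4 and 33.4 RPKM at 28 days. Its log2 fold changes of -0.28 and 0.03 did not pass (limma adjusted p = 0.089 and 0.896). Of 11 transcription factors of muscle genes, 3 rose at 7 days and 2 at 28 days, and the others did not pass. Over all tested genes 13.2% rose at 7 days and 2.87% at 28 days. Srf, which binds the CArG box, rose by 0.75 and 0.83, and Gata4 by 0.56 at either time. Tbx20 rose by 0.56 at 7 days. Of 17 refits, the calls were lost in 3 at either time for Srf, in 5 and 8 for Gata4, and in 6 for Tbx20. The calls of Acta1 and Ankrd23 were kept in all 17 refits at both times. In refits of the genes named from the lists, Tcap included, no direction turned; the call was kept in 218 and lost in 70 at 7 days, and kept in 151 and lost in 69 at 28 days.

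**Figure D5:**
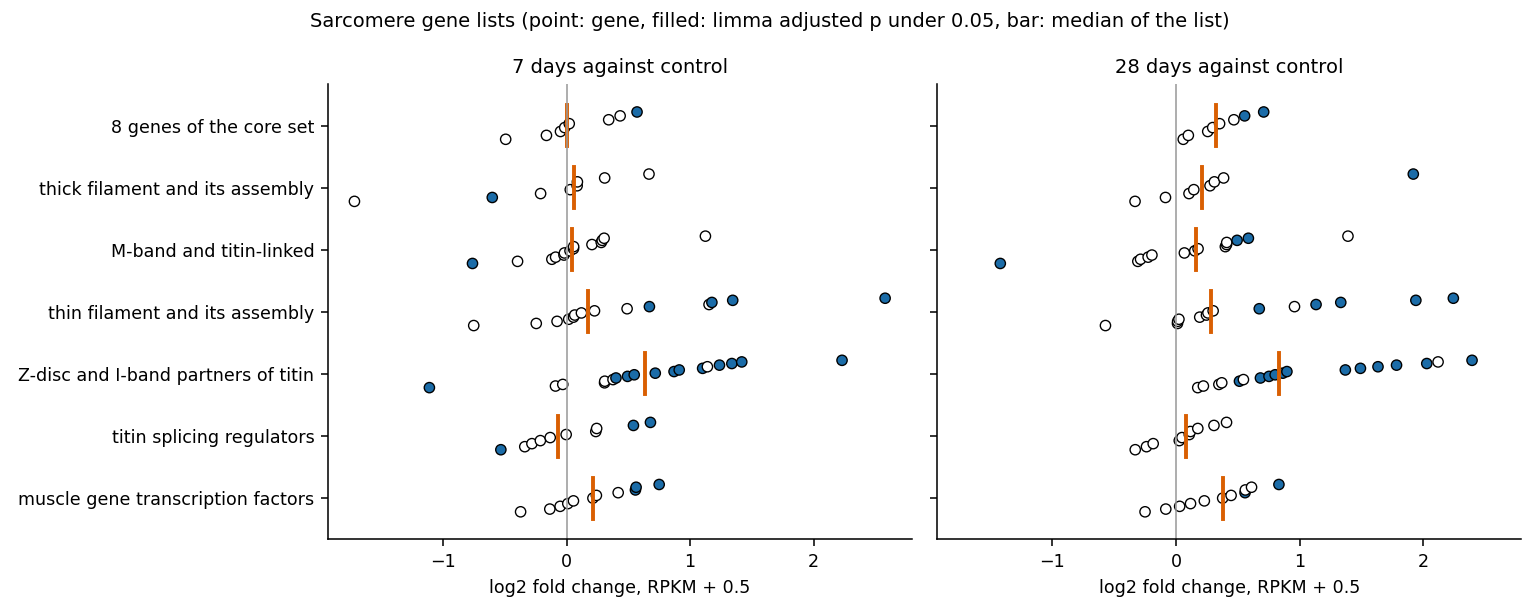
Log2 fold change (on RPKM + 0.5) of each tested gene of the 8 members and of 6 lists, at 7 and at 28 days against controls; filled points passed a limma adjusted p of 0.05 and orange bars are list medians. The medians of the Z-disc and I-band list, 0.63 and 0.83, lie farthest to the right at either time, and those of the 8 members are 0.00 and 0.32.

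Genes of other cell types moved at the same time. The 12 fibroblast markers summed to 590.5 and 612 RPKM in controls, 1364 and 1452 RPKM at 7 days, and 708 and 645 RPKM at 28 days. The 11 macrophage markers summed to 384 and 388 RPKM in controls, 635 and 712 RPKM at 7 days, and 346 and 254 RPKM at 28 days. Where 13.2% of all tested genes passed as higher at 7 days, 9 of 12 and 10 of 11 of these markers rose. Their part in the member differences was not tested. With libraries scaled to the 13 cardiomyocyte genes, Tnnc1 was called at 7 and at 28 days, at 0.54 and 0.64 on the log2 scale (limma adjusted p = 0.0167 and 0.0233), and Myom2 between 28 and 7 days, at 0.80 (limma adjusted p = 0.0416). The 28 day call of Mybpc3 was lost under that scaling. Of the 13 genes used for it, 2 were themselves called higher at 7 days and 1 at 28 days without it.

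The members were compared by their profile over the 6 libraries, given as a description over 6 points that share their libraries. Pearson's r on log2 values was 0.96 between Myl2 and Myl3, 0.85 between Myl2 and Tnnt2, 0.92 between Mybpc3 and Tnnc1, and 0.83 between Myom1 and Tnnc1. Other pairs ran from -0.15 (Myom1 and Myom2) to 0.82 (Myl3 and Tnnt2), with 0.71 between Myl3 and Mybpc3, so the members did not form separate groups. Myl2, Myl3 and Tnnt2 are short transcripts that were all lower in 7 day replicate 2, and the part of length in their r was not tested. Ttn had no r above 0.47 with another member. Among 3844 other genes, all at a mean of 10 RPKM or more, the profiles most like each member were taken, 2 for each. As the highest of 3844 values over 6 points, these r are high in part by that choice. No link between a member and such a gene was tested. The profiles most like Tnnc1 were the ribosomal protein genes Rpl27 and Rps26 (r = 0.99 for both), and those most like Mybpc3 were Bnip1 and Tceb2 (0.99 for both). For Myom1 the actin regulator Enah is given (0.996). Myl3 was most like the angiotensin receptor Agtr1a and Ndrg4 (0.99 for both), Myl2 like Swi5 and Nfyc (0.99 and 0.98), and Tnnt2 like Fitm1 and Tomm5 (0.99 for both). Myom2 was most like Efnb3 and Coq2 (0.98 for both), and Ttn like Wdr33 and Dtna (0.95 for both). Agtr1a, a receptor of Ang II, measured 10.1 and 9.22 RPKM in controls, 10.9 and 8.08 RPKM at 7 days, and 11.3 and 14.4 RPKM at 28 days.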

How the data were processed

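RNA libraries of mouse hearts were sequenced on an Illumina HiSeq instrument, per the labels' protocols. The values are RPKM, as made by the authors and deposited in 1 table of 22556 genes, per the file headers. DESeq2, HTSeq, Bowtie 0.12.9 and TopHat2 2.0.12, with the builds mm9 and mm8, appear in the submitters' processing notes with no role stated, and no source at hand names the tool or gene lengths behind the RPKM. RPKM were used as deposited on log2(RPKM + 0.5), which understates changes of low genes. The 11096 genes averaging 1 RPKM or more were fitted in limma 3.58.1 (R 4.3.3) with 3 group means over 6 libraries, a mean-variance trend and 3 residual degrees of freedom, and the fit was checked on simulated data. Intervals are 95% intervals. No read counts were used, and depth is relative, from the most common RPKM ratio of low genes. Ratios within a library were compared by exact permutation. Transcript lengths are from GENCODE vM21, matched by symbol for 98.8% of tested genes, and promoters from RefSeq (GRCm38.p6), since the builds differ from the authors'. Members and lists were chosen with earlier results of these data known. Named genes were the 8 members, up to 3 called genes with the largest change per list and comparison with controls, the 2 genes most like each member, and markers beside a result. Some genes that this rule took are not reported here. Alternatives were other pseudocounts, filters, scalings and variance models, each library left out, a replicate block, unadjusted p-values with a fold threshold (2-fold at 7 days and at 28 against 7 days, 1.5-fold at 28 days), and, added after seeing the data, removal of the trend with transcript length and, for ratios, quantile normalization. Python 3.11.15 and pandas 2.3.3 were used.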

Additional observations from a re-analysis of the deposited data

Results flagged for a closer look

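Myom2, the gene of the M-band crosslinker myomesin 2, differed between the 2 durations of infusion: it was higher at 28 than at 7 days by 0.85 on the log2 scale (limma adjusted p = 0.0221), with the 7 day libraries below and the 28 day libraries above both controls. Over the alternatives tried its adjusted p was between 0.0144 and 0.146. Fibroblast and macrophage markers also differed between these times, with 8 of 12 and 9 of 11 lower at 28 days, beside 4.26% of all tested genes. The part of either set of markers in the Myom2 difference was not tested.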

How the results depend on the processing

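Of the member fold changes recomputed under settings other than leaving out 1 library, 231 kept direction and side of the threshold, 13 lost a call, 7 gained one and 13 turned. Members called were 1 at 7 days, 2 at 28 days and 1 at 28 against 7 days. They were 0, 0 and 0 with no filter. At 28 days they were 0 under quantile normalization and 1 with cardiomyocyte scaling. With only the compared groups they were 2 at 7 days (Myom1 higher, Myom2 lower, and Tnnc1 lost) and 0 at 28 against 7 days. Without the length trend they were 3 at 7 days. By unadjusted p and fold, with a fold of at least 2 at 7 days and at 28 against 7 days and of at least 1.5 at 28 days, they were 0 at 7 days, 1 at 28 days and 0 between them. Calls over all genes were 1713, 489 and 518 in the 3 comparisons. At 7 days they were 1069 with cardiomyocyte scaling and 445 by unadjusted p and fold. At 28 days they were 61 with no filter, 308 with cardiomyocyte scaling, 234 with the compared groups and 808 by unadjusted p and fold. At 28 against 7 days they were 264 with no filter, 295 with a mean RPKM of at least 5, 276 by median ratio, 261 by quantile, 287 with the compared groups and 277 by unadjusted p and fold. The share of calls that were higher was 85.3% at 7 days, 61.2% by median ratio and 56.9% by quantile, and 8.69% at 28 against 7 days, 23.2% by median ratio and 20.7% by quantile. At 28 days it was 65.0%, and 52.6% with cardiomyocyte scaling.

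Under scalings, Myl3 turned at 7 days to -0.15 (median ratio), -0.12 (quantile) and -0.0078 (cardiomyocyte). At 28 days quantile values were -0.060 for Ttn, -0.38 for Myl2, -0.051 for Myl3 and -0.25 for Tnnt2, and Ttn was -0.015 with cardiomyocyte scaling. At 28 against 7 days Myom1 was -0.00235 (quantile) and -0.00992 (cardiomyocyte). Without the length trend Ttn was 0.23 at 7 days and -0.089 at 28 against 7 days, and Myl2 was 0.00738 at 7 days. Quantile normalization placed Myl2 over Myl3 at -1.21, -0.33 and 0.88 in the 3 comparisons, and Tnnt2 over Tnnc1 at -0.77 at 7 days and 0.13 at 28 against 7 days. Without the length trend Tnnt2 over Tnnc1 was -0.67 at 7 days and 0.082 at 28 against 7 days, and Mybpc3 over Ttn 0.11 and 0.32. The cause of these moves was not tested.

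With 1 library left out, calls over all genes ran from 392 to 2252 at 7 days, 33 to 384 at 28 days and 27 to 689 at 28 against 7 days, and members called from 0 to 2, 0 to 2 and 0 to 1. Log2 values that turned ran from -0.22 to 0.19 (Myl2), -0.11 to 0.15 (Myl3) and -0.20 to 0.10 (Tnnt2) at 7 days, from -0.088 to 0.20 (Ttn) at 28 days, and from -0.12 to 0.19 (Myom1), -0.00316 to 0.30 (Tnnt2) and -0.032 to 0.31 (Tnnc1) at 28 against 7 days. Without either 28 day library Myom2 (adjusted p = 0.0175 and 0.0177) and Myom1 (0.0257 and 0.0258) passed at 7 days.

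Replicate numbers were not taken as pairs: the correlation of deviations was 0.15 between control and 7 days, -0.02 between control and 28 days and -0.01 between the Ang II groups. With the replicate block 1, 0 and 1 members were called, and Mybpc3 and Tnnc1 each had an adjusted p of 0.0538 at 28 days. With 2 libraries a group and no read counts, small differences of the members could not be resolved.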
